A study of Mus musculus with 14 samples.

Results

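Among the RCOR2 binding peaks deposited for mouse embryonic stem cells (ESCs), 2066 of the 53216 on chromosomes 1 to 19 and X were 1000 bp wide or more. They were chosen by that width, with the tagged construct's own contig and the Rcor2 gene left out; 0 peaks of that width lay inside Rcor2. RCOR2 is a corepressor of the CoREST family, which holds the histone demethylase LSD1 and histone deacetylases on chromatin. CoREST is best known as a partner of REST, a zinc finger repressor that binds an element called RE1 and keeps neuronal genes silent outside neurons. In ESCs RCOR2 is known as a subunit of LSD1 complexes.

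The study isolated the Nanog promoter with designed TALE proteins and followed up RCOR2 with chromatin immunoprecipitation (ChIP) and with RNA-seq of knockout cells. All cells were C57BL/6 ESCs grown in serum, leukemia inhibitory factor, the MEK inhibitor PD0325901 and the GSK3 inhibitor CHIR99021. The 2 ChIP samples were cells expressing RCOR2-HA, a tagged protein, precipitated with anti-HA agarose, and the 2 negative controls were WT cells and mCherry expressing cells. RNA-seq compared 2 libraries of RCOR2 KO cells with 2 WT libraries. The sources used here do not say how the tagged protein was delivered, how the KO was made or whether it was 1 clone. The peaks come from 1 list called on the merged ChIP libraries, so no peak value has a replicate.

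Some wide peaks covered genes of neuronal microRNAs, short RNAs that repress messages matching their seed (bases 2 to 8, in capitals here). Of 18 microRNA hairpins under 17 wide peaks, 17 had a mature sequence in the RefSeq table of GRCm38.p6; Mir124a-3 was the other one. The mature strands below are shown because miR-132 and miR-212 sit under one peak and share a seed, and because miR-137 and miR-760 lay under 2 of the broad peaks of chromosome 3 (5′ to 3′).
mmu-miR-132-3p: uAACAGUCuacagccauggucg
mmu-miR-212-3p: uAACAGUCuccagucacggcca
mmu-miR-137-3p: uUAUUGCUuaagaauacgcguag
mmu-miR-760-3p: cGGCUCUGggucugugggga
The 4 mature strands lie at chr11:75173723-75173744 (plus), chr11:75173443-75173464 (plus), chr3:118433901-118433923 (plus) and chr3:122293615-122293634 (minus). The peak over Mir132 and Mir212 on chromosome 11 was 1576 bp wide and enriched 18.1-fold. The peak over Mir137 was 2376 bp wide at 7.56-fold, that over Mir760 was 3500 bp wide at 16.8-fold, and that over Mir124a-3 was 1023 bp wide at 7.58-fold. All these folds are the authors' values for each peak.

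Promoter windows of 300 bases (250 before a start site and 50 after) are shown for 6 genes whose start a wide peak covered. The first 3 hold letters of the RE1 element, in capitals. In Celsr3, a cadherin of neuronal wiring, and Unc13a, a synaptic vesicle priming factor, the capitals are TTCAGCACC, the left part of RE1, read on the other strand in Unc13a. In Ttc9b they are the left part without its first letter, any 2 bases and the right part GGACAG, also on the other strand. Positions and sequences are those of RefSeq on GRCm38.p6.
Celsr3, chr9:108825795-108826094, plus strand: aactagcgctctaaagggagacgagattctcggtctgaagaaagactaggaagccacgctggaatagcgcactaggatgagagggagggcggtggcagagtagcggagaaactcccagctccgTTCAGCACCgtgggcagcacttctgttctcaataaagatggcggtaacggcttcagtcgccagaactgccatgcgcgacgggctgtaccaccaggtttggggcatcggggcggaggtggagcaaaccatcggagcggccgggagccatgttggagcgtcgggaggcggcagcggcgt
Unc13a, chr8:71671708-71672007, minus strand: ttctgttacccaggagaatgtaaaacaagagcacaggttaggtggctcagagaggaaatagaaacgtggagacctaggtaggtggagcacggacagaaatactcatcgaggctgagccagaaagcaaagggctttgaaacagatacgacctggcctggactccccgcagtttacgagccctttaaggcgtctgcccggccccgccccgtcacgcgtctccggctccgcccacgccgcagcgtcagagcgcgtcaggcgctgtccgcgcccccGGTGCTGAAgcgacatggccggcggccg
Ttc9b, chr7:27653674-27653973, plus strand: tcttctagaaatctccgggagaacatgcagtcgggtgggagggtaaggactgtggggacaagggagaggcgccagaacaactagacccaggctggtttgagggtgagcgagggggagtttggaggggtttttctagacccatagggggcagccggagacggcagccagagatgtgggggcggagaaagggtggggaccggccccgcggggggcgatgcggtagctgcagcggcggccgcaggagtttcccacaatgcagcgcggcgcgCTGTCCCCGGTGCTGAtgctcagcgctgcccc
The other 3 belong to genes with some of the greatest changes in the KO libraries, with every CG dinucleotide in capitals. Dazl encodes a germ cell RNA-binding protein, St8sia1 a sialyltransferase of gangliosides, and Prmt8 an arginine methyltransferase of the brain.
Dazl, chr17:50293571-50293870, minus strand: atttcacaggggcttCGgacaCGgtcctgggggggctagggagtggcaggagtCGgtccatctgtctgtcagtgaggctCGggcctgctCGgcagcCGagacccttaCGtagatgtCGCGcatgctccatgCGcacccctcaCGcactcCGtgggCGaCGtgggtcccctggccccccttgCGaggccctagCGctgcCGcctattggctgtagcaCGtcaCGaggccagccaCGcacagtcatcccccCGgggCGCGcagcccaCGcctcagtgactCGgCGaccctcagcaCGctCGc
St8sia1, chr6:142964403-142964702, minus strand: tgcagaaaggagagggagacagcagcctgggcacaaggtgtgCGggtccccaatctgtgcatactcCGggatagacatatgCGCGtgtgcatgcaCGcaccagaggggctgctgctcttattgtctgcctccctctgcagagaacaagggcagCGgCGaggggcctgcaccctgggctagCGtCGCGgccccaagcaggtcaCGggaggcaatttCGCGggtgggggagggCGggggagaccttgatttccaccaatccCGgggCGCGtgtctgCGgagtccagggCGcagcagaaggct
Prmt8, chr6:127769106-127769405, minus strand: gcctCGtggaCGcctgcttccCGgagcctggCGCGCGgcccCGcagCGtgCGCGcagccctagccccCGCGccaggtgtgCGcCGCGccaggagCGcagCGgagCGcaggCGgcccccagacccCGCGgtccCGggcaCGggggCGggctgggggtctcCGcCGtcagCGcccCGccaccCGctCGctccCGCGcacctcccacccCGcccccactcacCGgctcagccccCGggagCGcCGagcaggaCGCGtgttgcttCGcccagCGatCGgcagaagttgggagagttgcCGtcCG
These windows held 28 CG dinucleotides in Dazl, 19 in St8sia1 and 44 in Prmt8, against a median of 24 in windows under wide peaks, 23 under narrower peaks and 7 in all 32619 windows.

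A search of all windows on both strands set these letters against their background. TTCAGCACC was in 8 of the 662 windows under wide peaks (1.21%), in 0.639% of the 6881 windows under narrower peaks only and in 0.374% of all windows. The 8 belonged to Acvr1, Arf3, Celsr3, Dner, Efs, Gm32659, Gsx1 and Unc13a. The longer run of left and right part, which shares 8 letters with it, was in 8 of all windows, 2 of them under wide peaks (Gm32659 and Ttc9b) and 6 under narrower ones. GGGCGG, the GC box, was in 71.0% of windows under wide peaks, 69.3% under narrower peaks and 35.9% of all. Windows under wide peaks had a median of 65.3% G and C, against 63.7% under narrower peaks and 53.0% of all, so base composition moved with these shares; its part was not tested. The ETS letters CCGGAAG were in 12.2% of windows under wide peaks and in 19.0% of those under narrower ones. The octamer ATGCAAAT, bound by POU5F1, was in 0.906%, 1.13% and 1.75% of windows under wide peaks, under narrower peaks and of all.

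Most wide peaks were only a little wider than the limit. The median width was 1239.5 bp, the upper quartile was 1502 bp and the widest spanned 6915 bp. Their fold of ChIP over control ran from 1.73 to 49.6 with a median of 7.26, and their median −log10 q was 14.4; the other 51150 peaks were 252 bp wide and 4.38-fold enriched at the median. The 62 peaks of 1000 to 1010 bp had a median fold of 6.64 and the 66 of 990 to 999 bp one of 6.44. The fold went up with the width class, from a median fold of 6.90 in the 1064 peaks of the narrowest class to 10.8 in the 45 of 3000 bp or more.

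**Figure D1:**
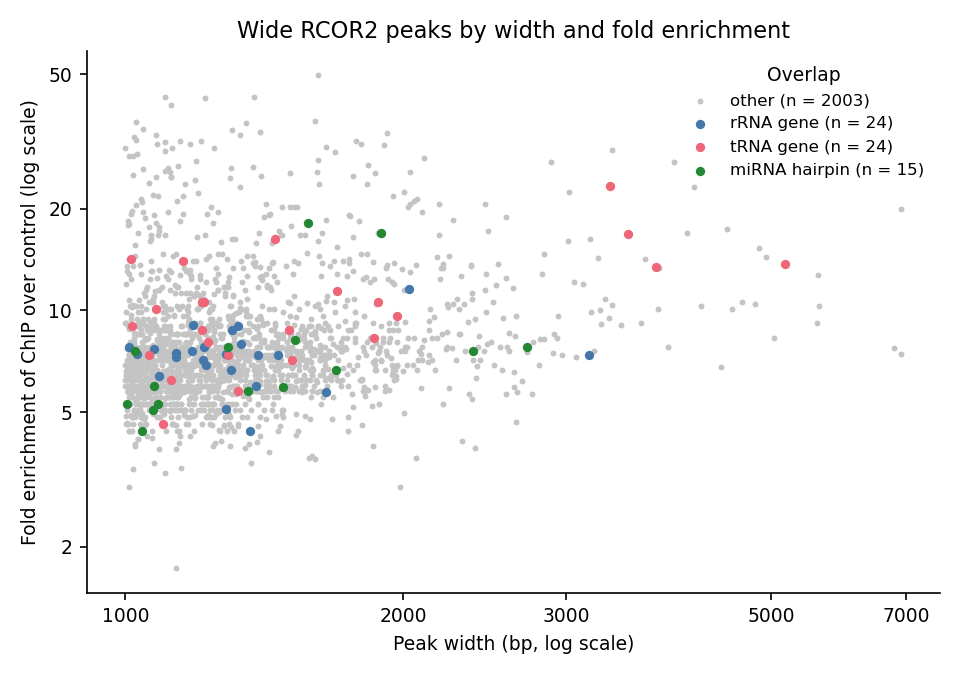
Each point is 1 of the 2066 wide peaks, by width in bp and by the authors' fold of ChIP over control (both axes logarithmic), coloured by the small RNA gene it overlaps; 2 peaks over both a tRNA gene and a microRNA are drawn as tRNA. Peaks over tRNA genes reach 23.4-fold and 5183 bp, and those over 5S rRNA genes lie between 4.40-fold and 9.02-fold.

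The wide peaks lay at gene ends about as often as the narrower ones. The summit lay at most 1 kb from the start or end of a protein-coding gene's interval in 473 of 2066 (22.9%, 95% Wilson interval 21.1 to 24.8), against 22.7% of the other peaks. It lay deeper inside a gene in 598 (28.9%, 27.0 to 30.9; others 31.9%) and outside genes in 995 (48.2%, 46.0 to 50.3; others 45.3%). Of the peaks outside genes, the median distance to the nearest gene was 28117 bp, and the farthest was 2061392 bp from Olfm4. Here and below, distances from genes and gene ends run from the summit, so the edge of a peak can lie nearer or reach the gene. The intervals cover counting error within 1 list only.

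A wide peak covers more sequence and so can meet more features than a summit; the part of width in the following shares was not tested. In all, 497 wide peaks (24.1%) overlapped a promoter window, against 11.7% of the others. Overlap with a long noncoding RNA gene was 13.7% against 10.4%. Transfer RNA genes were overlapped by 24 wide peaks (1.16%, 0.782 to 1.72) against 0.307%, and microRNA hairpins by 17 (0.823%, 0.514 to 1.31) against 0.0938%. No wide peak overlapped a gene of a small nuclear or small nucleolar RNA (95% Wilson upper limit 0.186%), while 8 and 3 narrower peaks did.

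**Figure D2:**
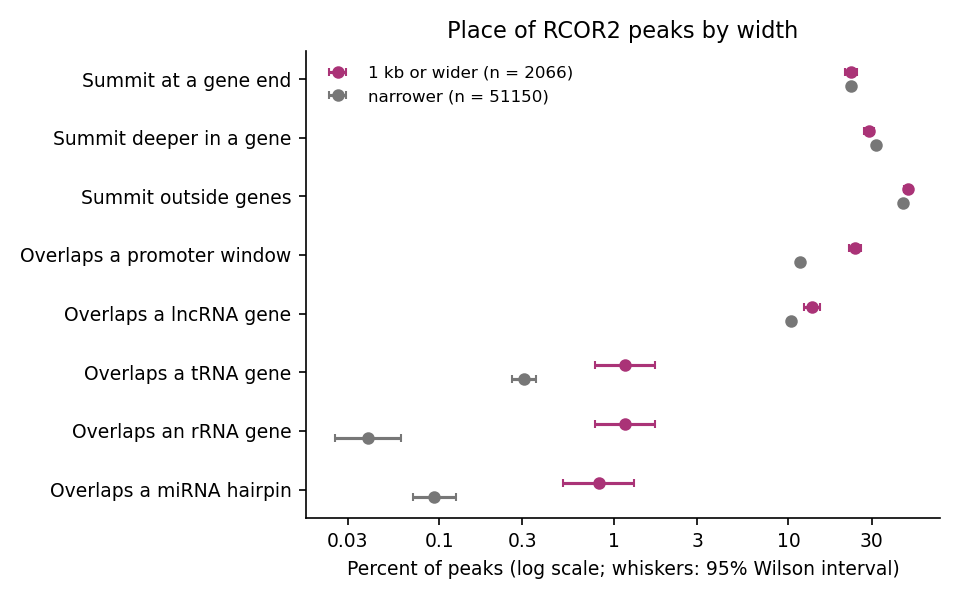
Percent of wide peaks (2066) and of narrower peaks (51150) at each place or over each feature, on a logarithmic axis, with 95% Wilson intervals. The summit classes lie close together (22.9% and 22.7% at gene ends), while overlap with rRNA genes is 1.16% among wide and 0.0391% among narrower peaks.

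The broad peaks over small RNA genes were led by tandem clusters. The 24 peaks over tRNA genes covered 56 of 408 annotated tRNA genes, with a median fold of 9.87. Among RCOR2 peaks of any width, 181 lay over tRNA genes and covered 223 of the 408. On chromosome 1 next to Fcgr3, an immunoglobulin receptor gene, 4 peaks between 171063688 and 171103293 covered repeated units of tRNA genes for aspartate, glutamate, glycine and leucine. The first of them was 3348 bp wide at 23.4-fold and held 5 tRNA genes, and the next was 5183 bp wide at 13.7-fold and held another 5. These copies are near-identical, and the sources used here do not say how reads shared by copies were placed.

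The 5S ribosomal RNA genes, transcribed by RNA polymerase III, gave another such place. On chromosome 8 between 123538784 and 123622046, 48 annotated 5S genes lie 1698 bp apart at the median. Over them lay 23 wide peaks (1008 to 3173 bp, 4.40-fold to 9.02-fold) and 20 narrower ones. The nearest protein-coding genes are Gas8, with 16 wide peaks, and Rhou, with 8, although the peaks lie outside both.

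A further tandem place, on chromosome 6 between 47654343 and 47773240, held 16 wide peaks of 1429 to 2365 bp, enriched 5.90-fold to 19.2-fold. The first covers Rn4.5s, the gene of the 4.5S RNA of rodents. They fall in 2 rows of 8, with starts 4155 to 4458 bp apart in the first row and 4163 to 5458 bp apart in the second. The region also held 38 narrower peaks. Its nearest protein-coding genes are predicted loci (Gm40363 to Gm40369) and Pdia4.

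Chromosome 3 carried more than its part of the wide peaks. It held 306 of the 2066 (14.8%) but 6.98% of all peaks. Of its 3717 peaks 8.23% were wide (7.39 to 9.16), while the other chromosomes ranged from 2.54% on chromosome 13 to 5.02% on X, and 3.56% over all of them. Its median width, 1398 bp, was also the highest of the 20 chromosomes, and its share climbed with width, from 10.2% of the 1064 narrowest to 42.2% (19 of 45) of those of 3000 bp or more.

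**Figure D3:**
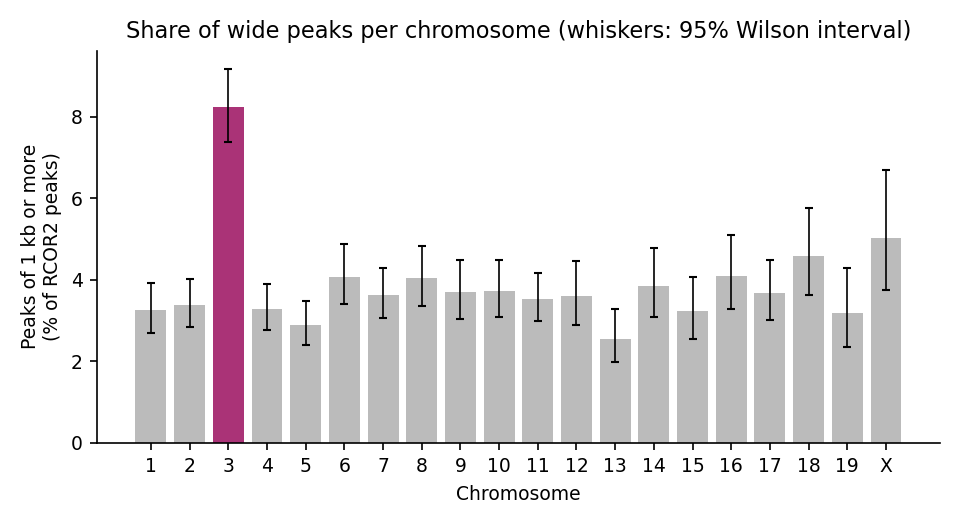
Peaks of 1 kb or more as a percent of all RCOR2 peaks on each chromosome, with 95% Wilson intervals. Chromosome 3, at 8.23%, stands above every other chromosome, of which X is highest at 5.02%.

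Within chromosome 3 the excess lay in a pair of stretches, chosen here after the counts were seen. From 100 to 105 Mb, 37 of 389 peaks were wide (9.51%), and from 115 to 140 Mb, 191 of 1508 (12.7%). In the rest of the chromosome the share was 4.29% (78 of 1820). The density of all peaks was also high there, with 490 peaks from 120 to 125 Mb and 389 from 100 to 105 Mb, against 17 to 233 in the 5 Mb bins below 100 Mb.

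Neighbouring wide peaks formed groups, and most large groups were on chromosome 3. With gaps of up to 50 kb joined, the 2066 peaks fell into 1685 places, of which 1475 were single peaks and 210 were groups holding 591 peaks. Of 22 groups with 4 peaks or more, 14 were on chromosome 3. The largest there ran over 229 kb from 104637621 to 104866354, with 20 peaks at Slc16a1 (a lactate transporter), Tafa3, Ppm1j, Rhoc (a small GTPase), Mov10 (an RNA helicase), Capza1 and St7l. The next ran over 248 kb from 121367899 with 16 peaks at Alg14, Cnn3 (an actin-binding calponin) and Slc44a3. Others held 9 peaks at F3 and Abcd3, 9 at Cisd2, Ube2d3 and Manba, 8 at Bcar3, 7 inside Ank2 and 5 at Lef1. Outside chromosome 3 and the tandem RNA clusters, the groups of 4 or more lay at Rnf125 (5), at Tagap and Rsph3a (4, median 18.8-fold), at Shank1 and Clec11a (4) and at Apol7a (4).

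Single genes therefore gathered many wide peaks. Gas8 was nearest to 16, Ank2 to 10, Slc44a3 to 9, Bcar3, Lrig2 and Rhou to 8 each, and Gm40363 and Manba to 7 each. Ank2 encodes ankyrin-B, a membrane skeleton adaptor; its strongest wide peak, from 127451081 to 127455009, was 3929 bp wide at 27.4-fold. Lef1, a transcription factor of the WNT pathway, had 5, from 5.90-fold and 5.47-fold farther out to 9.16-fold and 9.47-fold nearest to and inside the gene. Of 1677 nearest genes in all, 1437 had a single wide peak, 173 had 2 and 67 had 3 or more.

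The widest members lay mostly away from genes or in the chromosome 3 stretches. The 6915 bp peak on chromosome 7 was 29617 bp from Vmn1r77, a pheromone receptor gene, and the 5638 bp peak on chromosome 18 was 3375 bp from another of that family, Vmn1r238. The 6911 bp peak lay inside Fyb, an adaptor of T cells, at 19.9-fold. The 6792 bp peak was 16333 bp from Dsg2, a desmosomal cadherin, beside another of 4540 bp. Cnn3 (5619 bp), Mov10 (5603 and 4941 bp) and Slc44a3 (4854 bp) followed on chromosome 3, with Fcgr3 (5183 bp) on chromosome 1 and a 5033 bp peak 1206219 bp from Aga on chromosome 8.

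The members of highest fold were 1027 to 1615 bp wide, and 7 of the first 10 lay inside a gene. The highest, 49.6-fold, was 186658 bp from Atp23. Camta1 and Igsf21 followed at 42.8-fold, Npas4 at 42.6-fold, Xkr6 at 40.5-fold, Unc5a at 36.4-fold, Sema5b at 36.2-fold, Plppr2 at 36.0-fold, Atp2b2 at 34.4-fold and Elavl3 at 34.1-fold. Npas4 is an activity-induced transcription factor, Unc5a a netrin receptor, Sema5b a semaphorin of axon guidance, Atp2b2 a plasma membrane calcium pump and Elavl3 a neuronal RNA-binding protein. Of these 10 genes, Atp23, Camta1 and Elavl3 had enough counts to be tested. Among the nearest genes of the 100 members of highest fold, 45 of 96 in the count table were tested (46.9%), against 60.5% of all nearest genes of wide peaks.

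Expression was measured in libraries of 1974865 and 2951498 counts (KO) and 1286393 and 2368804 counts (WT). Rcor2 itself, the targeted gene, was at 54.2 and 53.9 CPM (read counts scaled to a common library size) in KO and 81.4 and 81.5 in WT. The KO libraries were lower without overlap, but the change did not pass edgeR's test (log2 −0.59, standard error (SE) 0.23, adjusted p = 0.0636, and 0.0461 with library size alone). How the KO was made is not given, and the source of the remaining Rcor2 counts was not tested. A pair of wide peaks had summits 5160 and 2195 bp outside Rcor2. The labelled cell type was checked against its markers: the 10 ESC markers were all tested and summed to 4321 to 4749 CPM in each library, the 12 fibroblast markers summed to 16.1 to 32.6 CPM with S100a4 at 0, and 1 of those was tested.

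Whole chromosomes differed between KO and WT libraries. The median log2 change, KO over WT, of all tested genes was 0.48 on chromosome 3, 0.92 on chromosome 6, 0.52 on chromosome 8 and −0.49 on chromosome 11, against −0.05 over the other chromosomes. Genes near wide peaks moved with their chromosome: their medians were 0.28, 0.84, 0.57 and −0.52 on those 4 and −0.04 elsewhere. Where a log2 change is printed for a gene on one of these chromosomes, it is also given after each chromosome was centred on its own median.

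**Figure D4:**
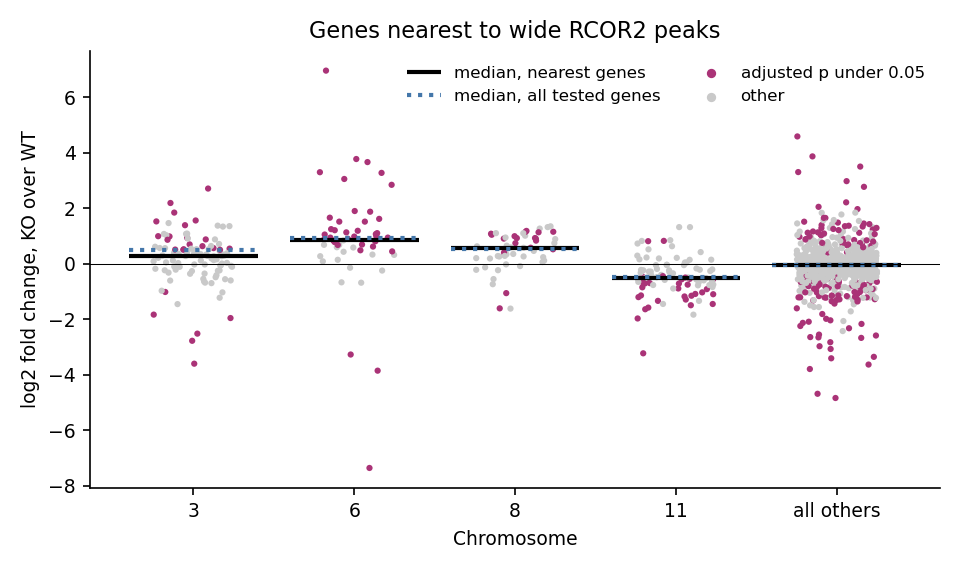
Log2 fold change, KO over WT, of each tested gene nearest to a wide peak, by chromosome, with genes of adjusted p under 0.05 in colour. The solid line is the median of these genes and the dotted line that of all tested genes of the same chromosomes; the pairs run from 0.84 and 0.92 on chromosome 6 to −0.52 and −0.49 on chromosome 11.

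Of the 1677 nearest genes 1601 were in the count table and 969 passed the low count filter. In the KO, 245 of them changed (25.3%), 125 higher and 120 lower, at an adjusted p under 0.05 by edgeR's quasi-likelihood test with 2 libraries a group. The background over all 10241 tested genes was 19.7%, with 10.4% higher and 9.3% lower. Outside chromosomes 3, 6, 8 and 11, with the calls of the full fit kept, 131 of 670 nearest genes were called (19.6%). Of these, 53 were higher and 78 lower. The background there was 14.1%, with 6.02% higher and 8.09% lower. Genes whose only peaks were narrower stood at 19.4% (1406 of 7240), or 13.6% without those chromosomes.

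The called genes were split about evenly by direction. The median log2 change of the 969 genes was 0.01, against −0.02 over all tested genes placed on the genome. A change of at least 2-fold was seen in 202 (20.8%), against 17.1% of those genes. The nearest genes also had somewhat more counts, a median of 281 over the 4 libraries against 256, which bears on how many can be called; its part was not tested. With DESeq2, 84 were called higher and 65 lower. Fewer were called with 1 KO library left out: 69 and 67 without KO replicate 1, and 79 and 70 without KO replicate 2.

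The share called differed with the place of the peak. Where the summit was at a gene end, 74 of 333 genes were called (22.2%); where it was deeper inside, 87 of 309 (28.2%); and where it lay outside, 113 of 425 (26.6%). Without the 4 shifted chromosomes these were 15.6%, 22.0% and 21.8%. The background over all tested genes was 19.7%, or 14.1% without those chromosomes, so the gene end share lay near it there. A gene with wide peaks at several places was counted in each. The differences between places, and from the background, were not tested. Genes with 3 wide peaks or more were called in 19 of 43 (44.2%), and without the shifted chromosomes in 6 of 13, 1 higher and 5 lower. In the 2 stretches of chromosome 3, 15 of 64 nearest genes were called (23.4%), against 29 of all 105 tested genes there (27.6%) and 32.8% in the rest of the chromosome. The difference was not tested.

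Gprc5a, Tead4 and Gata2 were among the 12 genes with the greatest increases. Gprc5a, a receptor of epithelial cells, had 102 and 81.1 CPM in KO and 5.48 and 9.90 in WT (log2 3.66, SE 0.33, adjusted p = 3.9e-13; 2.74 when chromosome 6 was centred). Its wide peak lay 137 bp from the gene. Tead4, the transcription factor that starts trophoblast fate, had 48.3 and 49.7 CPM in KO and 6.74 and 6.86 in WT (log2 2.84, SE 0.39; 1.93 centred), with a wide peak 232 bp from a gene end. Gata2, a factor of trophoblast and blood, had 26.9 and 31.4 against 4.22 and 2.29 CPM (log2 3.05, SE 0.52; 2.14 centred and 3.65 without WT replicate 1), with its peak 3889 bp away. KO and WT libraries did not overlap in these genes, as the choice of genes required.

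Eomes, Ptges and St8sia1 were also among these increases. Eomes, a T-box factor of trophoblast and mesoderm, had 17.3 and 22.5 CPM in KO and 1.26 and 3.05 in WT (log2 3.30, SE 0.66, adjusted p = 0.000132). It ranged from 2.69 without WT replicate 1 to 3.91 without WT replicate 2, and its wide peak was 71615 bp away. Ptges, a prostaglandin E synthase, had 42.5 and 53.4 against 5.48 and 6.86 CPM (log2 2.97, SE 0.40) with a peak inside the gene. St8sia1, whose start is printed above, had 23.1 and 15.2 against 1.26 and 1.52 CPM (log2 3.77, SE 0.70; 2.87 centred).

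A further 5 increases rested on 1 to 3 WT counts. Capn2, a calpain protease, was higher by a ratio of 14.8 (95% counting interval 4.84 to 74.0); its log2 change was 3.23 without WT replicate 2 and 7.66 without WT replicate 1, which left WT at 0. Rnf144b had a ratio of 27.5 (4.63 to 1113), Rora 12.2 (3.13 to 105), Hpgds 10.8 (2.72 to 93.0) and Cttnbp2 10.6 (3.40 to 53.6). All 4 lost their call without WT replicate 1 (adjusted p from 0.0921 for Rnf144b to 0.349 for Hpgds), and Rora, Hpgds and Cttnbp2 also without KO replicate 1. Without WT replicate 1 the log2 changes of Rnf144b, Hpgds and Cttnbp2 were 3.31, 1.95 and 2.49, and without WT replicate 2 they were 7.27, 6.86 and 4.22. Hpgds and Cttnbp2, on chromosome 6, stood at 2.40 and 2.41 when centred, with an adjusted p of 0.157 and 0.0839.

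Among the 12 greatest decreases, Dazl stood out by its counts. It had 39.7 and 33.0 CPM in KO and 323 and 291 in WT (log2 −3.07, SE 0.19, adjusted p = 2.1e-19), and its wide peak covered the printed start at 6.21-fold. Lef1 had 4.14 and 2.09 CPM in KO and 42.2 and 38.1 in WT (log2 −3.60, SE 0.47, adjusted p = 2.1e-08; −4.07 centred, −4.22 without KO replicate 1). It is the gene of 5 wide peaks on chromosome 3. Prmt8 had 0 counts in both KO libraries and 22 and 13 in WT, at least 15.7-fold lower against a floor of 3 counts over the group, with an 18.3-fold wide peak over its start.

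A further 4 decreases stood on few KO counts and moved with the library left out, while staying called. Obi1, a ubiquitin ligase of replication origins, had 1.04 and 3.14 CPM in KO and 22.8 and 19.0 in WT (log2 −3.41, SE 0.65), from −2.72 without KO replicate 1 to −4.27 without KO replicate 2. Parp12, an antiviral ADP-ribosyltransferase, had 0.345 and 1.57 against 12.6 and 13.7 CPM (log2 −3.85; −4.74 centred, −3.01 and −5.04 without KO replicates 1 and 2), with a wide peak 648 bp from its end. Epb41l3 had 1.73 and 0 against 14.8 and 14.5 CPM (log2 −3.79; −7.78 and −3.04). Kcns3, a modifier subunit of potassium channels, had 1 and 0 counts in KO against 16 and 11 in WT, a ratio of 36.4 (6.00 to 1490); its log2 change of −4.83 went to −6.81 and −4.23, and its 19.0-fold peak was 127631 bp away.

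**Figure D5:**
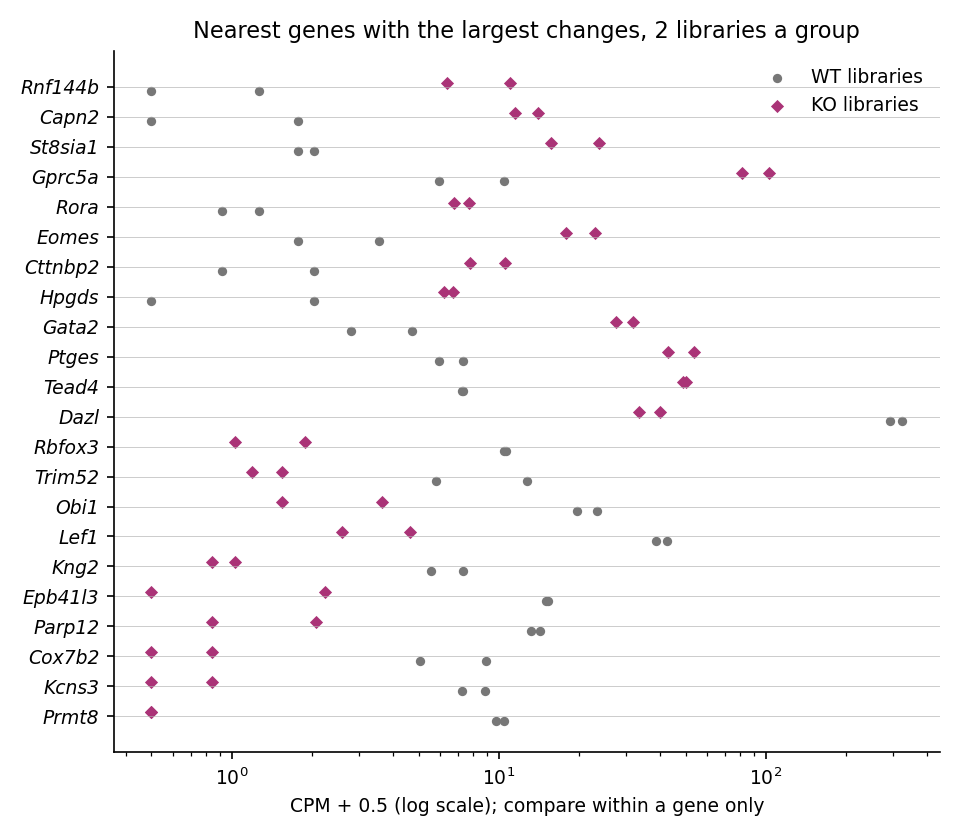
CPM + 0.5 of both KO and both WT libraries (logarithmic axis) for 11 of the 12 nearest genes with the greatest increases and 11 of the 12 with the greatest decreases. KO and WT points do not overlap for any gene shown, as the choice of genes required, from Rnf144b at 0 and 0.762 CPM in WT to Prmt8 at 0 in KO; levels should be compared within a gene only.

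Another 4 of the decreases lost their call when 1 library was left out. Rbfox3, the neuronal splicing factor NeuN, had 1.38 and 0.523 CPM in KO and 10.1 and 9.90 in WT (log2 −3.22, SE 0.84; −2.75 centred, −4.10 without KO replicate 1), and an adjusted p of 0.0580 without WT replicate 1. Its wide peak inside the gene reached 32.5-fold. Trim52 (log2 −3.35; −2.56 without WT replicate 1) and Cox7b2 (ratio 35.0, 5.76 to 1437; log2 −4.68, and −6.67 and −4.08 without KO replicates 1 and 2) had adjusted p values of 0.287 and 0.181 without WT replicate 1. Kng2 was lower by a ratio of 14.2 (3.46 to 124), with an adjusted p of 0.0949 without WT replicate 1.

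Genes with the most or the strongest peaks moved in either direction or did not pass the test. Manba, a lysosomal mannosidase with 7 wide peaks, had 34.2 and 34.5 CPM in KO and 7.17 and 2.29 in WT (log2 2.71, SE 0.46, adjusted p = 7.7e-06; 3.89 without WT replicate 1, 2.23 centred). Ank2, with 10, had 0.690 and 1.57 against 7.17 and 5.33 CPM (log2 −2.52, SE 0.89, adjusted p = 0.0371; −2.98 centred), and was not called without any 1 library, with a log2 change of −3.10 without KO replicate 2. Gas8, beside the 5S genes, had 33.8 and 37.1 against 11.8 and 20.6 CPM (log2 1.18, SE 0.37); it stood at 0.67 (adjusted p = 0.258) when chromosome 8 was centred, and it was not called without KO replicate 1, KO replicate 2 or WT replicate 1. Bcar3 (log2 −0.11, −0.59 centred), Lrig2 (0.56, 0.08 centred) and Rhou (1.10, 0.59 centred) did not pass the test, and Slc44a3 had too few counts. Elavl3, under a 34.1-fold peak, had 0 and 2.09 CPM in KO and 7.59 and 5.33 in WT (log2 −2.83, SE 0.96, adjusted p = 0.0281), which went to −1.63 without KO replicate 1 (adjusted p = 0.361) and −6.87 without KO replicate 2. Its call was also lost without either WT library. Camta1 (log2 −0.43) and Atp23 (−0.19) did not pass. Near the widest peaks, Dsg2 fell (log2 −1.02, SE 0.26), Cnn3 rose by 0.56 but stood at 0.08 when centred, and Mov10, at 0.01 and not called, stood at −0.47 (adjusted p = 0.0965) when centred.

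Among 20703 protein-coding genes in the count table, 1601 were nearest to a wide peak and 6587 to no RCOR2 peak. Of 27 core and naive pluripotency factors 26 were nearest to some RCOR2 peak and 12 to a wide one. All 12 were tested: Tbx3, Nanog, Klf5 and Lin28a rose, Mycn and Dppa5a fell, and Sox2, Nr5a2, Pou5f1, Utf1, Zfp42 and Tdgf1 did not pass. Over the whole list 8 of 27 rose and 3 fell, and of all tested genes 19.7% were called. The median of the 12 was 0.32 on the log2 scale, against 0.15 over the 27. Tbx3, a repressor that sustains naive ESCs, had 587 and 428 CPM in KO and 175 and 222 in WT (log2 1.37, SE 0.16, adjusted p = 2.9e-09), and 3 wide peaks, one of them inside the gene at 16.9-fold. Nanog had 641 and 619 against 451 and 451 CPM (log2 0.48, SE 0.15, adjusted p = 0.0127). Its sign turned to −0.44 (adjusted p = 0.0362) when chromosome 6 was centred, and its call was lost without either KO library (0.165 and 0.116). The Nanog wide peak was 1449 bp wide, from 122701446 to 122702894, at 10.1-fold. Its summit lay 5161 bp from the gene. Its edge lay 4233 bp from the nearer edge of the TALE 1 peak at Nanog. These distances start from different points of the wide peak, so they do not place the TALE 1 peak relative to the gene. Of the 17 TALE peaks, 0 overlapped a wide RCOR2 peak.

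The calls of several other factors were not steady. Klf5 (log2 0.66), Lin28a (1.34), Mycn (−0.65) and Dppa5a (−0.47) each lost theirs with at least 1 KO library left out, and Sox2, at −0.24 and not called, passed at −0.72 when chromosome 3 was centred. Sox2 had a pair of wide peaks with summits 104572 and 108469 bp from the gene, and Pou5f1 one of 2604 bp with its summit 2005 bp from the gene. DESeq2 called 3 of the 12 higher and 1 lower, and centring gave 3 and 3.

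Regulators of trophoblast and germ cells were among the genes that changed. All 4 trophoblast genes nearest to a wide peak changed, Tead4, Eomes and Gata2 upward and Tfap2c downward. Tfap2c had 46.9 and 30.9 CPM in KO and 80.5 and 136 in WT (log2 −1.44, SE 0.25). In the whole list 7 of 10 tested genes rose and 2 fell. Over all tested genes 10.4% were called higher and 9.3% lower. On chromosome 6, which holds Tead4 and Gata2, 56.2% of all tested genes were called higher. The 19 trophoblast genes together summed to 509 to 514 CPM in KO and 370 to 389 in WT, with Prl3d1 and Tpbpa at 0, and the part of other cell types was not tested. Of 3 germline genes Dazl and Tfap2c fell and Nanos3 was at −1.62 (adjusted p = 0.0968; −2.13 and 0.0330 when centred), and in that list 11 of 19 tested genes fell. Sox11 and Olig2, of 3 neural progenitor genes, fell (log2 −1.19 and −2.32), though Sox11 lost its call without WT replicate 2 and Olig2 without WT replicate 1. Of 4 formative and primed genes Lef1 and Sox4 fell, Sox4 not being called without WT replicate 1 (adjusted p = 0.0674). In the NODAL and BMP list, Nodal (log2 −0.16) and Bmp7 (0.04) did not pass. No primitive endoderm gene of 20 was nearest to a wide peak, while 16 were nearest to some RCOR2 peak. Of 20703 protein-coding genes in the count table, 1601 were nearest to a wide peak and 6587 to no peak. The difference from these shares was not tested.

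Signalling and chromatin genes near wide peaks rose, fell or did not pass the test. In the whole FGF and ERK list 7 of 17 tested genes rose and 2 fell, with a median log2 change of 0.41. The 2 that fell were nearest to wide peaks. They were Etv5, an ERK-induced ETS factor (50.0 and 47.1 against 129 and 114 CPM, log2 −1.32, SE 0.22), and the ligand Fgf4 (log2 −0.83, SE 0.16). Ier2 rose by 0.99 but was at 0.48 (adjusted p = 0.0888) when chromosome 8 was centred, and Spred2 did not pass. In the WNT list Lef1 and the ubiquitin ligase Znrf3 fell, Znrf3 at −1.14 and not called when chromosome 11 was centred (−0.66). Of the methylcytosine dioxygenases, Tet2, with 3 wide peaks, rose by 0.86 (0.39 centred, adjusted p = 0.160), and Tet1, with 2, fell by 0.43 and was not called without KO replicate 2 (adjusted p = 0.548). Bcl3 and Pim1 of the LIF list, and Jarid2 of the NuRD and Polycomb list, did not pass. In the whole WNT list 1 of 15 tested genes rose and 4 fell, and of 10 tested DNA methylation enzymes 3 rose and 2 fell. Over all tested genes 10.4% were called higher and 9.3% lower.

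Subunits and partners of the complex itself were marked but not called. Over all protein-coding genes in the count table, 1601 of 20703 were nearest to a wide peak. Of 18 CoREST and LSD1 complex genes 8 were nearest to a wide peak, namely Rcor2, Rcor3, Hdac2, Rest, Zmym3, Gse1, Zfp217 and Phf21b. Of the 7 tested, 0 were called by edgeR, 2 had an unadjusted p under 0.05 and DESeq2 called 0. Over all tested genes edgeR called 19.7%. Rest had 321 and 379 CPM in KO and 409 and 371 in WT (log2 −0.16, SE 0.15), with an 11.7-fold wide peak 354 bp from a gene end. Hdac2 was at −0.51 (adjusted p = 0.0796; 0.0371 without WT replicate 1).

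Neuronal targets of REST combined strong wide peaks with little RNA. Of 41 such genes 12 were nearest to a wide peak, and 3 of the 12 had enough counts to be tested: Stmn2, Mapk8ip2 and Unc13a. Over all protein-coding genes in the count table, 1601 of 20703 were nearest to a wide peak. Stmn2, a microtubule regulator of growing axons, rose by 0.50 but was at 0.03 (adjusted p = 0.945) when chromosome 3 was centred. Celsr3 had 4 and 1 counts in KO and 3 and 1 in WT under a 27.5-fold peak of 2887 bp, and Glra1, a glycine receptor, had 8 and 2 against 3 and 4 counts under a 25.2-fold peak. Snap25, a synaptic fusion protein, lay under a 24.7-fold peak with 0 counts in both KO libraries and 2 and 0 in WT. A difference in these untested genes was not detectable at this depth.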

How the data were processed

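The measurements were RCOR2 ChIP-seq peaks and RNA-seq counts. Per the file headers and peak names, the authors deposited 1 peak list called on merged libraries, with a fold ratio of ChIP over control, a −log10 q value and a score for each peak, and raw read counts per gene symbol. The submitters' processing notes name Trimmomatic 0.36, Bowtie2 2.3.4.1, MACS2 2.1.1.20160309, bedtools 2.25.0, HOMER, STAR 2.5.2b, SAMtools 1.8, Subread and featureCounts, without roles. Neither labels nor headers give the strand of counting, use of molecular identifiers, the control used for peaks or the handling of reads that map to several places.

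From these files each peak was assigned by its summit to the protein-coding gene holding it, or else to the gene with the nearest end, in the RefSeq gene table (GRCm38.p6, the build of the peaks; positions are 1-based). The promoter table lacks some genes, chromosome 18 among them. Counts of 25131 rows were filtered with filterByExpr, leaving 10241 genes, and tested with edgeR 4.0.16 in R 4.3.3 (TMM, quasi-likelihood test, Benjamini-Hochberg adjusted p under 0.05, two-sided); 26 rows whose symbols had become dates (0.136% to 0.158% of counts) name no gene and were left out. No label says that the replicates came from separate cultures; p-values therefore reflect only the spread of these libraries, possibly technical. Ratios against 1 to 3 counts have 95% counting intervals, and intervals and floors (3 counts) cover counting error only. The test was also run on simulated data for KO against WT with 10241 genes. Of these, 100 were changed 2-fold and 100 were changed 4-fold, with the same fixed spread between libraries for every gene. It recovered 40% of the genes changed 2-fold and 89% of those changed 4-fold. The spread was not taken from these libraries, so the shares hold for the simulated setting only.

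Named genes were those nearest to the 10 widest and the 10 highest-fold members, the 12 greatest increases and the 12 greatest decreases among called genes without overlap of libraries, the 8 genes with the most members, and the members of the 17 gene lists, with Nanog and Rcor2. Some genes that the rule names are not reported here. Members, lists and tests were chosen with earlier results of these data known. Alternatives were DESeq2 1.42.0, other scalings, no filter, a replicate block, centring of chromosomes, leaving out libraries or chromosomes, and other limits of width, fold, q and distance. The replicate numbers did not pair the samples (correlation of deviations −0.05).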

Additional observations from a re-analysis of the deposited data

How the results depend on the processing

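Against 125 nearest genes called higher in the report, 78 were called higher after centring each chromosome, 43 without chromosomes 3, 6, 8 and 11 (50 when also rescaled, an alternative added after seeing the data) and 34 for peaks of 1500 bp or more; leaving out 1 library gave 69 to 120. Against 120 called lower, DESeq2 called 65, and the counts were 70 and 58 without those chromosomes, 36 for peaks of 1500 bp or more and 67 to 92 with 1 library left out. The median log2 change of 0.01 became −0.0440 with library size alone and −0.0432 without those chromosomes, and ran from −0.0421 to 0.0398 with 1 library left out. Over all genes, 2014 were called, against 1156 by DESeq2, 1326 centred, 951 and 950 without those chromosomes and 1126 to 1738 with 1 library left out. Calls of list genes near wide peaks, 23 in all, were 13 and 11 without those chromosomes and 15 to 21 with 1 library left out. A limit of 1500 bp left 520 wide peaks. The share at a gene end went from 22.9% to 31.3% within 2 kb and to 20.7% for a −log10 q of 10 or more. Fewer genes, libraries or peaks enter several of these, and otherwise the cause was not tested. The tested nearest genes numbered 969 in the report, 670 without those chromosomes and 248 for peaks of 1500 bp or more. A lower count there is therefore not by itself a lower share. Without chromosomes 3, 6, 8 and 11 the test was run again on the remaining genes. Its counts therefore differ from the 53 higher and 78 lower kept from the full fit. Nanog turned to −0.44 when centred. The other sign changes were of uncalled genes: centring put Mov10 at −0.47 and Zfp42 at −0.0534, library size alone put Mov10 at −0.0440 and the replicate block put it at −0.0045, and with 1 library left out Atp23 ran from −0.49 to 0.13, Bcar3 from −0.22 to 0.0047, Mapk8ip2 from −1.50 to 0.44 and Mov10 from −0.24 to 0.21. With the replicate block, 114 nearest genes were called higher and 107 lower, 1822 over all genes and 22 in lists, and the median was 0.01; the numbers do not pair the samples. Over the named genes' alternatives, 621 kept direction and side of the threshold, 84 lost the call, 4 gained it and 11 changed sign.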
